A study of Rattus norvegicus with 12 samples.

Results

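The 40 genes described here are endothelial, pericyte and blood-brain barrier genes, taken by symbol from a list of 40 and all found among the 17494 genes counted. They fall by role into 6 junction and adhesion genes, 7 transporters, 9 receptors and signalling proteins, 6 surface and secreted proteins, 4 transcription factors, 7 genes of mural cells (pericytes and smooth muscle) and 1 protease. RNA was measured in 12 male Long Evans rats, all exposed to blast 3 times at 10 weeks of age and killed 29 weeks after blast. The diet of 6 rats held boldine, a plant alkaloid, at 500 mg/kg (blast-boldine, rats 12, 17, 19, 20, 32 and 35), and that of the other 6 rats was the same chow without it (blast-controls, rats 1, 4, 5, 6, 7 and 9). By the study's methods, boldine treatment began after the blasts and went on until the rats were killed. No rats spared from blast are among these libraries, so the comparison is of boldine within blast-exposed rats. The tissue is brain in the labels and hippocampus in the study's methods, and whole tissue was used, in which fewer vessel cells and less RNA per cell cannot be told apart.

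Brain capillaries are lined by endothelial cells that are sealed to each other by tight junctions and carry dedicated transporters, so that what enters the brain is selected. Pericytes wrap the capillaries and smooth muscle cells the arterioles, and signals between these cells and from neighbouring astrocytes keep the barrier in place. Cldn5 is the main claudin of brain endothelium and Pdgfrb the receptor through which pericytes are recruited.

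Of the 40 genes, 0 differed between blast-boldine and blast-controls in the quasi-likelihood test of edgeR with treatment as the only term, either after Benjamini-Hochberg adjustment (smallest adjusted p = 0.99996) or at an unadjusted p under 0.05 (smallest 0.181, for Slco1a4). Over all 12325 genes tested, 0% passed after adjustment and 1.07% at the unadjusted threshold. The differences ran from a log2 fold change of -0.32 (Abcg2) to 0.46 (Ocln). They lay above 0 for 32 of the 40 genes, against 51.3% of all genes, with a median of 0.15 against 0.0046 over all genes. That count depended on single rats and ran from 25 to 33 over the rats left out. The median ran from 0.04 without blast-control rat 9, where the count was 25, to 0.27 without blast-control rat 4. The 95% intervals were wide, and 25 of 40 lay within 1 log2 unit of 0 on both sides, and the other 15 intervals reached past 1 log2 unit.

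The library of blast-control rat 6 held 74008 counts on genes, against 10148474 to 40850106 in the other 11 rats. In rat 6, 1 count was worth 15.8 CPM (counts scaled to library size, with TMM factors), 21 of the 40 genes had no count and 4 reached the 3 counts taken as the smallest detected value. In the other rats every one of the 40 genes lay above that value, with at least 7 counts. Without rat 6, 0 of the 40 genes passed the unadjusted threshold, against 1.40% of 12529 genes, and the median log2 fold change was 0.14. In CPM the 6 blast-boldine rats and the 5 remaining blast-controls overlapped for all 40 genes, while 0.152% of all genes did not overlap. CPM values below are for these 11 rats unless rat 6 is named.

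A further difference between libraries was larger than that between treatments. The library names carry a suffix from 1 to 6, each used on 2 libraries. Each suffix was placed once in each set, with rat numbers assumed to rise with the suffix. Under that assumption there are 4 ways of placing the rats in 2 sets of 6. The way that took up most of the first principal component, 94.9% of it, put rats 1, 7, 9, 20, 32 and 35 in set 1 and rats 4, 5, 6, 12, 17 and 19 in set 2, with 3 rats of each treatment in each set. No label states what the sets are, and they were chosen from these data. That component held 68.5% of the variance, and treatment took up 1.54% of it. With the set as a covariate, 0 of the 40 genes passed the unadjusted threshold, against 3.85% of all genes, and 29 of 40 lay above 0, against 48.4%, with a median of 0.04. The median standard error of the 40 genes was then 0.168, against 0.308 without the set, and 39 of 40 intervals lay within 1 log2 unit of 0.

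Levels of different genes were compared as CPM per kilobase of exon, averaged over 11 rats. Tjp1, a scaffold of tight junctions that is also made by many other cells, was highest at 55.4 ± 12.4 (SD, n = 11). Slc2a1, the glucose transporter of the barrier, followed at 34.6 ± 2.23 and Rgs5, a regulator of G protein signalling made by pericytes, at 29.6 ± 9.53, and the spreads of Slc2a1 and Rgs5 overlapped. Cldn5 was seventh of the 40 at 13.8 ± 3.83. Pdgfrb stood at 7.40 ± 0.718. The lowest were Mmp9, a secreted protease, at 0.976 ± 0.438 and Kcnj8, a subunit of potassium channels of pericytes, at 0.777 ± 0.327. Defining endothelial (Cldn5, Pecam1, Cdh5, Flt1), pericyte (Pdgfrb, Rgs5, Abcc9, Kcnj8, Vtn) and smooth muscle (Acta2, Tagln) genes were thus present in all 11 rats. Outside the 40, the smooth muscle gene Myh11 ran from 10.4 to 72.7 CPM. Another, Cnn1, ran only from 0.0498 to 0.385 CPM and was too low to be tested. Its lowest value, in rat 35, lay below the smallest detected value there, 0.149 CPM.

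**Figure D1:**
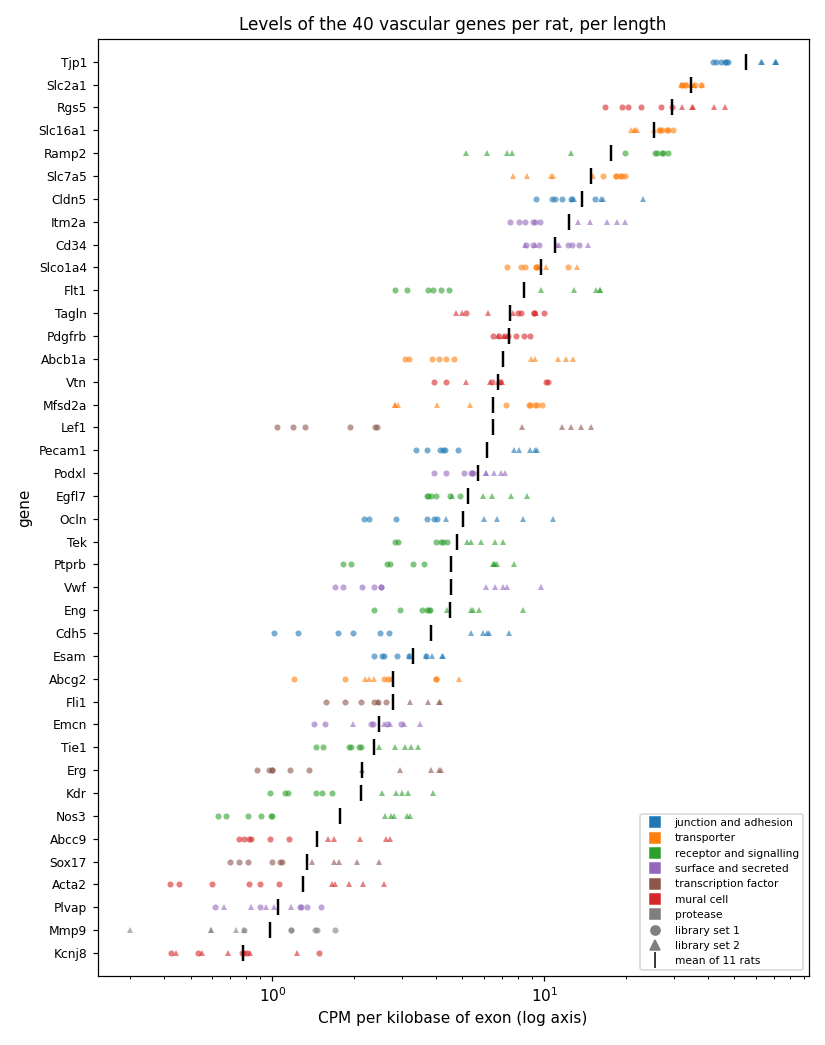
CPM per kilobase of exon (log axis) for each of the 40 genes, ordered by the mean of 11 rats (black bars), with 1 point per rat, coloured by role and shaped by library set. Tjp1 was highest at 55.4 and Kcnj8 lowest at 0.777, and for genes such as Lef1 and Flt1 the points of the library sets lie apart.

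Promoters are shown for an endothelial junction gene, a VEGF receptor that differed widely between library sets, and a smooth muscle gene, from RefSeq on GRCr8, as windows of 300 bases around the start of each gene. The table held 27 of the 40 genes; Pdgfrb and Tagln were not in it. The words searched, on both strands, were AGGAAG, a core that ETS factors such as Erg and Fli1 bind, and the CArG box, which serum response factor binds in muscle genes, taken in its strict form of 2 C, 6 bases that are each A or T, and 2 G. Forms that depart from it by a base were not searched, and capitals mark matches.
Cldn5 (chr11:95718549-95718848, minus strand): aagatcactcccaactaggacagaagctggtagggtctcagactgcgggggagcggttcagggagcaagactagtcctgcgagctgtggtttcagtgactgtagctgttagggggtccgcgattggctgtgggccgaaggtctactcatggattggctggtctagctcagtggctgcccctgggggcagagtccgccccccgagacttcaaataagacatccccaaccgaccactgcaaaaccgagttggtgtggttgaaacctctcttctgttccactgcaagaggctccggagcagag
Flt1 (chr12:12333180-12333479, plus strand): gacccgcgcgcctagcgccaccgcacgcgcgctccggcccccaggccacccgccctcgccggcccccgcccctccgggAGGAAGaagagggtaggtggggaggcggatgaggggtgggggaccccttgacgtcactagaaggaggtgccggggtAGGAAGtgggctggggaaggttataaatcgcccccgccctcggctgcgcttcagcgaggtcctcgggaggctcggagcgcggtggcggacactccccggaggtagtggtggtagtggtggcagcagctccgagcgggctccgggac
Acta2 (chr1:241172454-241172753, minus strand): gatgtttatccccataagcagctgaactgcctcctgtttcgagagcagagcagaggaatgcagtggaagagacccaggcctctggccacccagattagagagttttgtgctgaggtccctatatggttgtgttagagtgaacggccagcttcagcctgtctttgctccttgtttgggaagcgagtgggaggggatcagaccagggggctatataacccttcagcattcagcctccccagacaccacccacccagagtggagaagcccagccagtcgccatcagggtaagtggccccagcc
The Flt1 window holds 2 matches to AGGAAG, and those of Cldn5 and Acta2, marked for AGGAAG and for the strict CArG box respectively, hold no match to these words. AGGAAG lay in 11 of 27 promoters of these genes (40.7%) and in 34.3% of 27457 promoters. The strict CArG box lay in 0 of 27 and in 1.64% of all. These letters describe the windows and were not measured as bound, and a window without them may hold a variant of the element. The Acta2 window holds ccctatatgg, which departs from the strict CArG box by a base. Such forms were not counted in the other promoters.

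Among junction and adhesion genes, none of 6 passed the test, with log2 fold changes from -0.06 to 0.46. Cldn5 (mRatBN7.2 chr11:82212822-82214248) had a lowest, median and highest value of 15.3, 20.01 and 23.4 CPM in blast-boldine, and of 13.3, 17.9 and 32.9 in blast-controls. The highest value was that of blast-control rat 4, and the groups overlapped. The log2 fold change was 0.04 (SE 0.25, 95% interval -0.49 to 0.58, exact permutation p = 0.788 without rat 6), and ran from -0.053 without rat 1 to 0.31 without rat 4. Ocln, occludin of the tight junction, ran from 8.98 to 44.6 CPM (median 20.5) in blast-boldine and from 9.34 to 27.6 (median 16.7) in blast-controls. Its highest values were in set 2, in rats 12 and 17, and its log2 fold change of 0.46 (SE 0.40, 95% interval -0.41 to 1.33, exact permutation p = 0.539 without rat 6) was 0.17 without rat 12, 0.68 without rat 5 and 0.18 (SE 0.23, 95% interval -0.31 to 0.68) with the set as covariate. Tjp1 ran from 283 to 472 CPM (median 390.0) and from 277 to 420 (median 309). Its log2 fold change was 0.16 (SE 0.18, 95% interval -0.24 to 0.55, exact permutation p = 0.5 without rat 6), from 0.089 to 0.25 over the rats left out and 0.10 (SE 0.08, 95% interval -0.08 to 0.28) with the set as covariate. The permutation test within library sets gave p = 0.07, with 0.005 the smallest p it allows. Pecam1, Cdh5 (the cadherin of endothelial adherens junctions) and Esam had 0.18, 0.41 and -0.06.

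Of the 7 transporters 4 lay above 0 and 3 below, and none passed the test. Without rat 6, 3 lay above 0 and 4 below, with Slc2a1 at -0.01. Slco1a4, an organic anion transporter of brain endothelium, had the smallest p of the 40 genes. It ran from 29.8 to 47.7 CPM (median 34.3) in blast-boldine and from 26.4 to 36.8 (median 33.7) in blast-controls, with its highest values in rats 19 and 35. Its log2 fold change was 0.23 (SE 0.16, 95% interval -0.12 to 0.57, exact permutation p = 0.219 without rat 6), from 0.15 to 0.29 over the rats left out. Abcg2, an efflux pump, ran from 2.62 to 10.5 CPM (median 4.84) and from 5.12 to 8.70 (median 5.92). Rat 19 held the highest value and rat 20 the lowest, both in blast-boldine. The log2 fold change was -0.32 (SE 0.31, 95% interval -0.98 to 0.35, exact permutation p = 0.234 without rat 6). Without rat 20 it was -0.17. Without rat 19 it was -0.61 (edgeR adjusted p = 0.99987), the one case among all single rats left out in which a gene of the 40 passed the unadjusted threshold. The efflux pump Abcb1a had 0.31, Slc16a1, a carrier of lactate, 0.09 and Slc2a1 0.05. Mfsd2a, a lipid carrier that limits transcytosis, had -0.08 and Slc7a5, a carrier of large neutral amino acids, -0.12.

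Of the 9 receptors and signalling proteins 8 lay above 0, from -0.13 (Ramp2) to 0.39 (Kdr), and none passed. Kdr, the main signalling receptor for VEGF, ran from 6.72 to 22.9 CPM (median 13.3) in blast-boldine and from 5.75 to 17.6 (median 8.91) in blast-controls. All values above 14 CPM came from set 2, in both treatments. The log2 fold change was 0.39 (SE 0.38, 95% interval -0.42 to 1.203, exact permutation p = 0.398 without rat 6), 0.19 without rat 19, 0.64 without rat 5, and 0.25 (SE 0.16, 95% interval -0.09 to 0.58) with the set as covariate. The exact permutation test within sets gave p = 0.07. Tek, the receptor of angiopoietins, ran from 13.3 to 32.01 CPM (median 23.3) and from 12.9 to 24.5 (median 19.4), with 0.24 (SE 0.23, 95% interval -0.27 to 0.74, exact permutation p = 0.455 without rat 6), from 0.12 to 0.36 over the rats left out and 0.13 with the set as covariate. The others were Flt1 at 0.23, Nos3, which makes nitric oxide, at 0.30, Ptprb at 0.15, Tie1 at 0.10, Egfl7 at 0.05 and Eng at 0.03.

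Of the 6 surface and secreted proteins 5 lay above 0. Emcn, a sialomucin of capillary and venous endothelium, ran from 1.97 to 4.86 CPM (median 3.94) in blast-boldine and from 2.17 to 3.67 (median 3.27) in blast-controls, with 0.25 (SE 0.24, 95% interval -0.26 to 0.76, exact permutation p = 0.357 without rat 6), from 0.15 to 0.38 over the rats left out. Plvap, a protein of fenestrated vessels that mature barrier endothelium largely lacks, was low, from 1.19 to 2.94 CPM (median 1.79) and from 1.75 to 2.61 (median 2.27), with -0.18 (SE 0.25, 95% interval -0.73 to 0.36, exact permutation p = 0.342 without rat 6), from -0.35 to -0.076 over the rats left out. The groups overlapped for both. Vwf, the clotting protein stored by endothelium, had 0.34, Itm2a 0.15, Podxl 0.14 and Cd34 0.03.

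All 4 transcription factors lay above 0 with treatment alone, and 2 of 4 did with the set as covariate. Fli1, an ETS factor, ran from 3.43 to 7.70 CPM (median 5.25) in blast-boldine and from 2.92 to 6.96 (median 4.54) in blast-controls, with 0.28 (SE 0.27, 95% interval -0.30 to 0.85, exact permutation p = 0.357 without rat 6), from 0.15 to 0.46 over the rats left out and 0.16 with the set as covariate. Sox17, a factor of arterial identity and barrier maintenance, ran from 1.62 to 5.75 CPM (median 3.21) and from 1.75 to 4.10 (median 2.51), with 0.29 (SE 0.34, 95% interval -0.45 to 1.03, exact permutation p = 0.613 without rat 6), 0.081 without rat 17, 0.46 without rat 5 and 0.083 with the set as covariate. Lef1, which acts in Wnt signalling, had 0.40 with an interval of -1.27 to 2.08, the widest of the 40, and -0.01 with an interval of -0.49 to 0.46 with the set as covariate. Erg, an ETS factor, went from 0.24 to -0.03.

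Of the 7 mural genes 6 lay above 0 and none passed. Pdgfrb (mRatBN7.2 chr18:54500002-54538843) ran from 34.8 to 45.1 CPM (median 39.2) in blast-boldine and from 36.2 to 47.6 (median 38.2) in blast-controls. Its values differed little among rats, and its log2 fold change of 0.01 (SE 0.12, 95% interval -0.25 to 0.28, exact permutation p = 0.939 without rat 6) had the narrowest interval of the 40. Vtn, vitronectin, made by pericytes, ran from 6.95 to 16.5 CPM (median 10.9) and from 6.25 to 11.2 (median 10.2), with 0.27 (SE 0.26, 95% interval -0.28 to 0.83, exact permutation p = 0.431 without rat 6), from 0.15 without rat 35 to 0.39 without rat 20. Rats 32 and 35 were highest, at 16.2 and 16.5 CPM. The summed level of 6 fibroblast and meningeal markers (Dcn, Lum, Col1a1, Col1a2, Col3a1, Slc6a13) was also highest there, at 106 and 87.4 CPM, against 34.3 to 75.3 in the other 9 rats, and its part in the Vtn values was not tested. Tagln, an actin-binding protein of smooth muscle, ran from 4.96 to 10.5 CPM (median 7.46) and from 5.40 to 9.77 (median 9.61), with -0.18 (SE 0.24, 95% interval -0.70 to 0.34, exact permutation p = 0.368 without rat 6), from -0.31 to -0.096 over the rats left out. Abcc9 and Kcnj8, which form a potassium channel, had 0.22 and 0.18, Rgs5 had 0.11 and Acta2, smooth muscle actin, 0.15.

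Mmp9, a protease that can degrade the vessel basement membrane, ran from 0.893 to 5.05 CPM (median 2.27) in blast-boldine and from 1.78 to 4.37 (median 3.50) in blast-controls. The range of blast-boldine enclosed that of blast-controls, and the lowest value was in set 2. The log2 fold change was -0.30 (SE 0.37, 95% interval -1.09 to 0.49, exact permutation p = 0.357 without rat 6), -0.59 without rat 20 and -0.14 without rat 17. Neutrophil markers (S100a8, S100a9, Mpo, Elane, Ngp), a cell type known for Mmp9, summed to between 0.0992 and 1.26 CPM, and Elane had no count in any of the 11 rats. None of these markers was high enough to be tested. The lowest sum, in rat 17, lay below the smallest detected value there, 0.298 CPM. The part of neutrophils in the Mmp9 values was not tested.

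**Figure D2:**
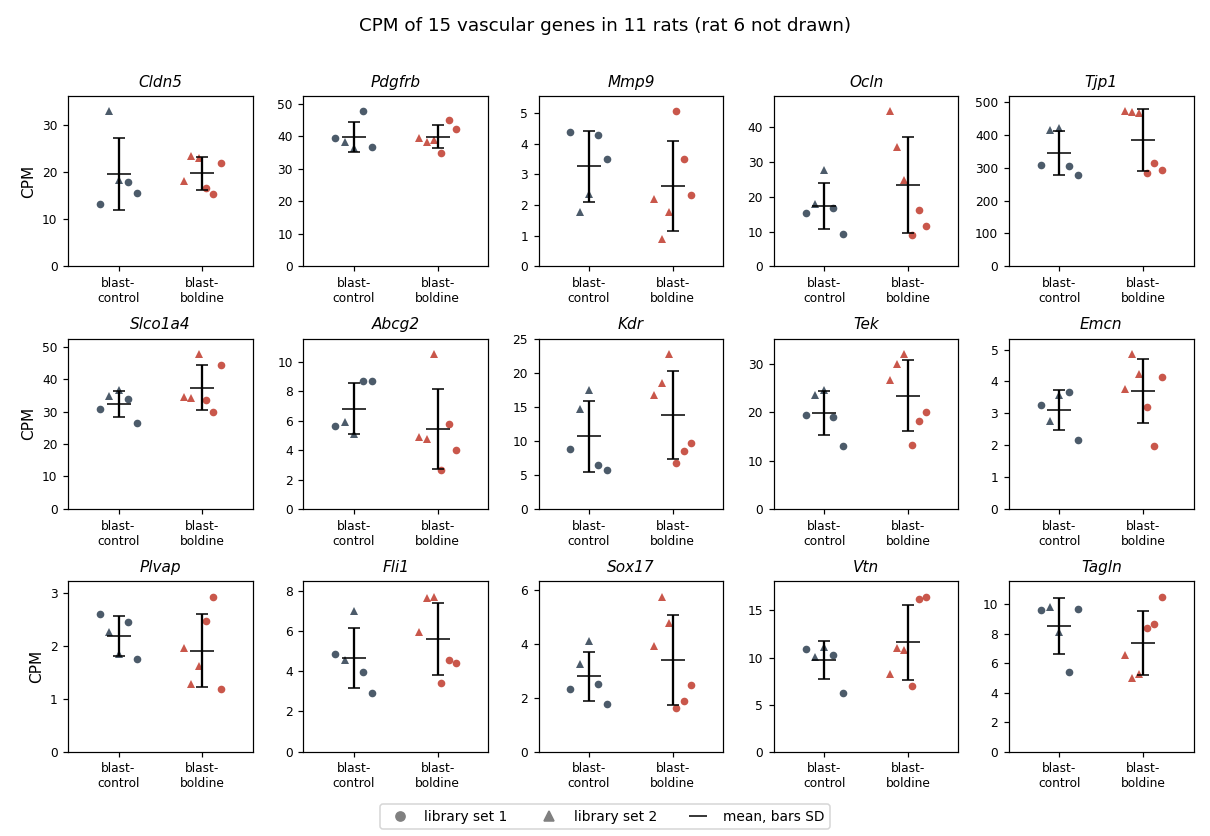
CPM (vertical axes from 0) of 15 genes in 11 rats, with blast-controls in dark blue, blast-boldine in red, library sets by shape, and the mean with SD as bars. The groups overlap in every panel, and in the panels of Tjp1, Kdr and Tek set 2 lies above set 1 within each treatment.

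The exact permutation tests compared mean log2 CPM. Over the 11 rats other than rat 6, p lay between 0.219 (Slco1a4) and 0.939 (Pdgfrb) for these 15 genes, and over all 12 rats between 0.113 (Slco1a4) and 0.885 (Abcg2), with 0.00216 the smallest p either design allows. With rat 6, where Abcg2, Mmp9, Plvap and Tagln had no count, their differences turned from -0.41, -0.40, -0.23 and -0.22 to 0.56, 0.39, 0.47 and 0.80 (exact permutation p = 0.885, 0.816, 0.831 and 0.812). Within library sets and without rat 6 the smallest was 0.07, for Tjp1 and Kdr.

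**Figure D3:**
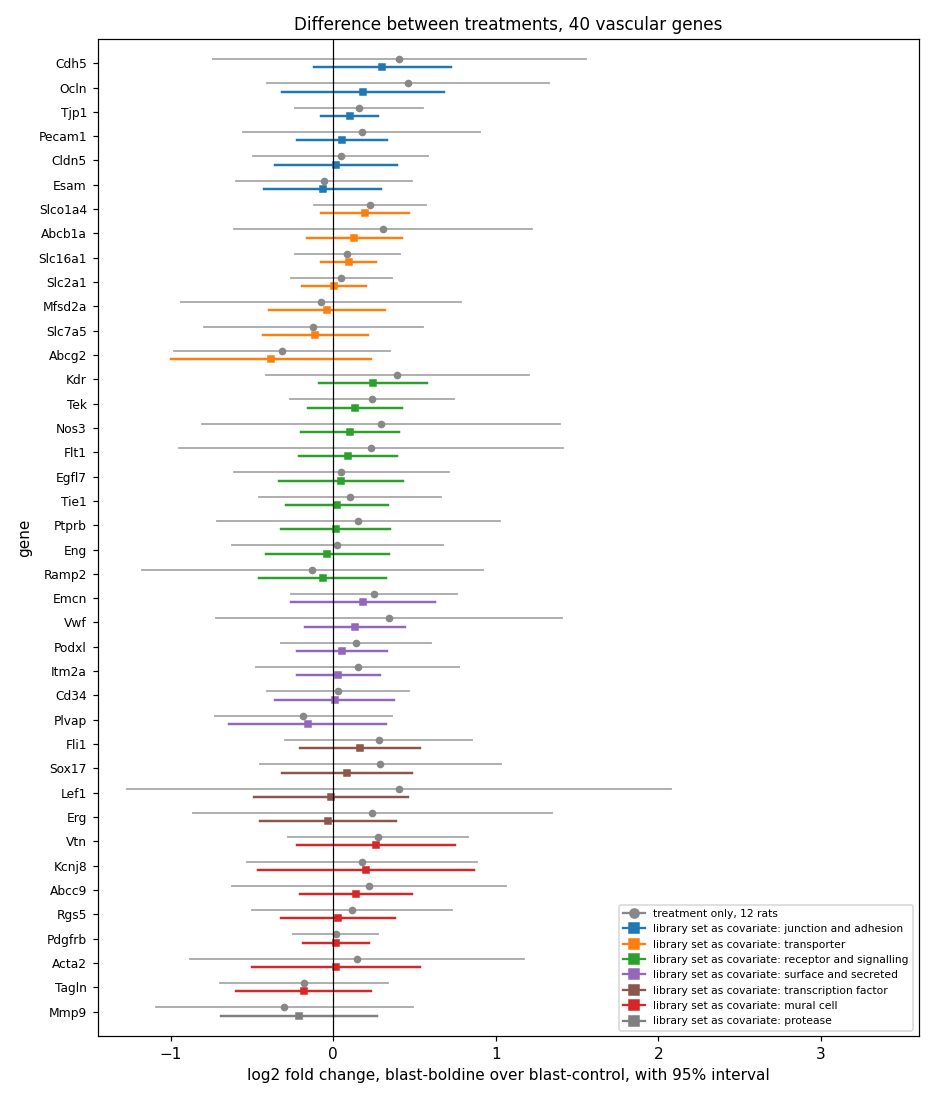
Log2 fold change of blast-boldine over blast-control with its 95% interval for 40 genes, in blocks by role, from the fit with treatment only in 12 rats (grey) and with the library set as covariate (coloured). Every interval of both fits includes 0, and 39 of 40 coloured intervals lie within 1 log2 unit of 0, against 25 of 40 grey ones.

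The library sets differed in 30 of the 40 genes at an adjusted p under 0.05 (edgeR with treatment in the model, 11 rats). Set 2 was higher for 25 and lower for 5, against 34.7% and 33.5% of all genes, and the median log2 fold change was 0.67, against -0.0020 over all genes. Since the sets were chosen on these libraries, this is a description. Lef1 lay between 1.24 and 2.90 CPM in set 1 and between 9.87 and 17.8 in set 2. Flt1, a VEGF receptor, lay between 30.5 and 48.1 CPM in set 1 and between 105 and 174 in set 2. Their log2 fold changes were 2.80 (SE 0.24) and 1.92 (SE 0.15). Values of the sets lay apart for others of the 40 too, such as Tjp1 (277 to 314 CPM in set 1, 415 to 472 in set 2). The share of all genes whose sets lie apart was not counted. Nos3, Vwf, Cdh5 and Erg followed, with 1.78, 1.75, 1.72 and 1.68.

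All 6 junction genes and all 4 transcription factors were higher in set 2, Cldn5 least but one at 0.47 (SE 0.17). Ramp2, which carries the calcitonin-like receptor to the membrane, went the other way, from 14.7 to 21.1 CPM in set 1 and from 3.79 to 9.28 in set 2, with -1.72 (SE 0.19). Mfsd2a, Mmp9, Slc7a5 and Slc16a1 were also lower in set 2, at -1.30, -1.05, -0.79 and -0.32. Mural genes divided, with Acta2, Abcc9 and Rgs5 higher in set 2 at 1.45, 1.27 and 0.76, while Pdgfrb, Vtn, Kcnj8 and Tagln did not pass the test, at -0.09, -0.13, -0.13 and -0.32.

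Markers of other cells moved with the sets as well. Of 5 microglial markers 4 were lower in set 2 (median log2 fold change -1.07), and their summed level lay between 257 and 282 CPM in set 1 and between 113 and 182 in set 2. Of 4 erythrocyte markers 2 were lower in set 2, with Hba-a1 at -1.64, and 1 was higher, Alas2 at 0.90. Their summed level lay between 122 and 175 CPM in set 1 and between 27.6 and 78.7 in set 2. Both sums did not overlap between sets. Of 5 astrocyte markers 3 were lower in set 2 (median -0.34), of 6 fibroblast markers 2 were lower (median -0.48), and of 5 hippocampal neuron markers 2 were higher, with Prox1 at 1.006, and 3 lower. The part of these cells in the set difference of the 40 genes was not tested.

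**Figure D4:**
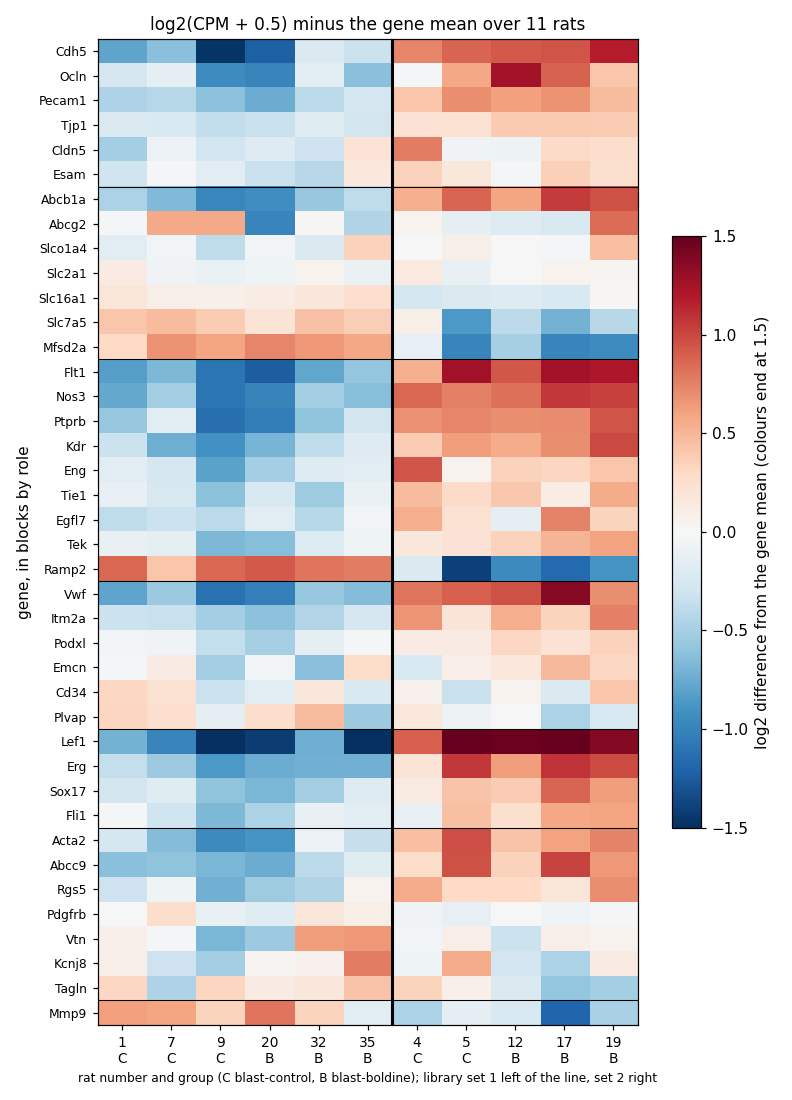
Log2(CPM + 0.5) of 40 genes minus each gene's mean over 11 rats (colour, ending at 1.5), with rats of set 1 left and of set 2 right of the line and groups given as C and B. The colours change at the line for most genes, such as Flt1, Lef1 and Ramp2, and stay pale for Pdgfrb and Slc2a1.

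Longer genes tended to be higher in set 2. The Spearman correlation of the set difference with genomic span was 0.55 across the 40 genes and 0.27 across 12507 genes, and with exon length 0.33 and 0.22. These are correlations across genes, which share the libraries and are not independent replicates.

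**Figure D5:**
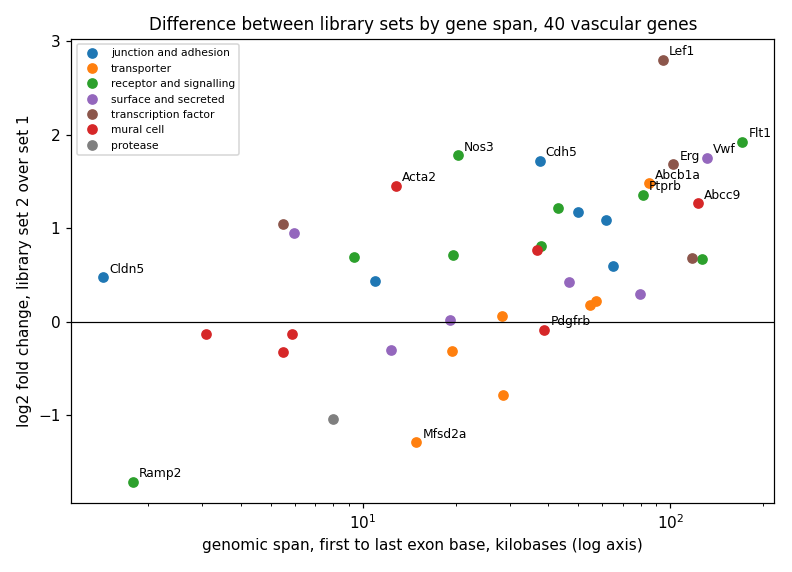
Log2 fold change of library set 2 over set 1 (vertical axis) against genomic span in kilobases (log axis) for 40 genes, coloured by role. Short Ramp2 lies lowest at -1.72, and the long genes Flt1 and Vwf lie at 1.92 and 1.75. Cldn5, which is shorter still than Ramp2, departs from this trend at 0.47.

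Whether the treatment difference itself differed between sets was tested as an interaction, in which 3 of the 40 genes had an unadjusted p under 0.05, against 5.64% of all genes, and 0 after adjustment. Tagln differed between blast-boldine and blast-control by 0.20 in mean log2 CPM in set 1 and by -0.67 in set 2. Kcnj8 differed by 0.70 and -0.59 and Abcg2 by -0.91 and 0.19. The adjusted p of the edgeR interaction of all 3 was 0.881.

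Related genes that are not among the 40 were examined by list. Of 10 vessel ligands 8 lay above 0, and Angpt1, a ligand of Tek, was the one with an unadjusted p under 0.05. It ran from 13.0 to 27.1 CPM (median 17.2) in blast-boldine and from 9.80 to 18.5 (median 10.96) in blast-controls, and the groups overlapped. Its log2 fold change was 0.64 (SE 0.26, edgeR adjusted p = 0.99996), and 0.52 (SE 0.16, edgeR adjusted p = 0.99981) with the set as covariate. Of 10 other mural genes tested 6 lay above 0, and Tbx18, a mural transcription factor, had 0.58 (SE 0.25, edgeR adjusted p = 0.99996) and passed the unadjusted threshold. With the set as covariate Tbx18 passed it again at 0.58 (SE 0.24), and 2 genes that were lower, Cspg4 and Mylk, named after their values were seen, also passed, with 0 of the 10 after adjustment.

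In the remaining lists no gene reached an unadjusted p under 0.05 with treatment alone. Above 0 lay 8 of 9 other junction genes (smallest p Lsr, 0.414), 3 of 11 genes of Wnt signalling at the barrier (Wnt7a, 0.328), 4 of 7 basement membrane genes (Nid2, 0.424), 6 of 11 other transport genes (Tfrc, 0.217), 2 of 4 leukocyte adhesion genes (Icam2, 0.358) and 4 of 6 metalloproteases and inhibitors (Mmp14, 0.420). Of all genes, 51.3% lay above 0 in that fit. Without rat 6 it was 5 of 9 other junction and 5 of 11 Wnt genes. The other lists then had 4 of 7, 6 of 11, 2 of 5 and 5 of 6, in the same order.

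Markers of other cells were compared between treatments too. Of the 6 fibroblast and meningeal markers 5 lay above 0, with a median of 0.67, and Slc6a13 (0.98, SE 0.35) and Col3a1 (0.94, SE 0.40) passed the unadjusted but not the adjusted threshold. Choroid plexus markers (Ttr, Kl, Clic6, Folr1, Kcnj13, Aqp1) summed to between 9.003 and 1218 CPM in blast-boldine and between 14.1 and 1218 in blast-controls. Astrocyte, microglial, erythrocyte and hippocampal neuron markers had 0 genes at an unadjusted p under 0.05 with treatment alone, with smallest p of 0.246 (Gfap), 0.228 (Tmem119), 0.515 (Alas2) and 0.0541 (Wfs1). With the set as covariate Tmem119, a microglial gene, at -0.46 (SE 0.15) and Wfs1, a marker of CA1 neurons, at -0.31 (SE 0.11) passed the unadjusted threshold (edgeR adjusted p = 0.99981 for both), as did 3 fibroblast markers. The part of these cells in the values of the 40 genes was not tested.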

How the data were processed

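Stranded, ribosomal RNA-depleted libraries were made from total RNA, 1 per rat. The authors removed PCR duplicates with HTStream, aligned reads to mRatBN7.2 with STAR 2.7.11b and counted reads on RefSeq exons, by gene name and strand, with featureCounts of Subread 2.0.1. The deposited values are these raw counts for 12 libraries, and the counting command had no option to count reads with several alignments. None of the 40 genes shares exon bases with another gene on its strand, and no libraries were identical.

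Groups came from the labels. Counts were tested with edgeR 4.0.16 in R 4.3.3 (quasi-likelihood, TMM, filterByExpr with a minimum of 10 counts), fitted over all genes, two-sided, with Benjamini-Hochberg adjustment at 0.05. SE and 95% intervals came from the F statistic. edgeR raises p to that of a Poisson fit where larger, which held for 1 of the 40 genes with treatment alone and for 7 with the set as covariate, so there p exceeds what the interval gives. All 40 genes passed the filter. Log2 CPM used a prior count of 2. Exact two-sided permutation tests ran over 924 assignments of 12 rats, 462 without rat 6, and 400 and 200 within sets. The p printed beside a gene is that without rat 6, a choice made after the data were seen. The smallest detected value, 3 counts, was 47.5 CPM in rat 6 and 0.0658 to 0.307 in the others, covering counting error only.

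Values are given in full for 15 genes, namely Cldn5, Pdgfrb, Mmp9 and the 2 genes of each role with the smallest p; the others are given by their difference. Genes outside the 40 are named as part of a printed list, or for the smallest p of their list in a fit. Others are named for an unadjusted p under 0.05, Myh11 and Cnn1 as markers of smooth muscle, and Kcnj8 is named by its interaction. Promoter words were searched in Python 3.11.15. The genes, lists and sets were chosen with earlier results of these data known. Alternatives were DESeq2 1.42.0 (the study's tool), limma-voom (limma 3.58.1), RLE and upper-quartile size factors, no filter, robust empirical Bayes, the library set, a prior count of 0.5 and leaving out each rat. The edgeR, DESeq2 and limma-voom tests were checked on simulated counts with no library set difference. Their behaviour under such a difference was not checked.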

Additional observations from a re-analysis of the deposited data

Results flagged for a closer look

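In 80 groups examined (40 genes in 2 groups, without rat 6), 3 held a rat whose gap to its nearest neighbour was large against the range of its group, and chance gives about 1 in 20. Cldn5 in blast-control rat 4 was 32.9 CPM, with a gap of 0.742 of the range above the other controls. Kcnj8 in blast-boldine rat 35 was 2.34 CPM, with a gap of 0.627 of the range. Vtn in blast-control rat 9 was 6.25 CPM, below the others by 0.778 of the range.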

How the results depend on the processing

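The count of genes with an unadjusted p under 0.05 was 0 of 40 with and without rat 6, with the library set as covariate, with both changes, with DESeq2 (with and without rat 6), limma-voom, RLE and upper-quartile size factors, no filter and robust empirical Bayes. Leaving out 1 rat gave a range of 0 to 1, the 1 being Abcg2 without blast-boldine rat 19. The count after adjustment was 0 in every one of these fits, and the interaction called 3 genes at the unadjusted threshold with and without rat 6.

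Differences near 0 changed sign. Slc2a1 went from 0.05 to -0.01 without rat 6. Cldn5 was -0.0011 with the library set and without rat 6, and ran from -0.053 to 0.31 over the rats left out. Pdgfrb was -0.014 with DESeq2, -0.00094 with DESeq2 without rat 6, -0.0025 with limma-voom, -0.0045 with RLE and -0.0091 with upper-quartile size factors, and ran from -0.022 to 0.089 over the rats left out. In mean log2 CPM, where the counts of 0 in rat 6 lower the control mean, Mmp9, Abcg2, Plvap and Tagln differed by 0.39, 0.56, 0.47 and 0.80 with rat 6 and by -0.40, -0.41, -0.23 and -0.22 without it, over all assignments and within sets. None of these had a p under 0.05. No paired analysis was possible because the groups share no replicate numbers.

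Over the other settings, Sox17 fell from 0.29 to 0.068 with limma-voom, where Emcn was 0.10, Ocln 0.29, Plvap -0.31 and Abcg2 -0.47.

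Precision was limited by the number of rats and by the spread between library sets, whose origin is not given in the sources used here. The median SE was 0.308 with rat 6, 0.304 without it and 0.168 with the set as covariate. The depth of rat 6 could not show most of these genes.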
